A study of Homo sapiens with 4 samples.

Results

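GATA2 occupancy at 10 genes of TGF-beta and BMP signalling was examined in K562 cells: the ligand TGFB1, the receptors TGFBR2 and BMPR2, the signal transducers SMAD1 and SMAD3, the inhibitory SMADs SMAD6 and SMAD7, the corepressors SKI and SKIL, and the target gene ID2. A peak was assigned to one of these genes when it overlapped the gene body or the 50 kb on either side of it in the GENCODE annotation of hg38. By this rule the genes held 57 of the 31777 peaks of asynchronous cells and 5 of the 1648 peaks of mitotic cells. The rule used position only, and no peak was counted for more than 1 of the 10 genes.

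The data are from ChIP-seq, which sequences the DNA recovered with an antibody to a protein, in this study endogenous GATA2. K562 is an established human line from a chronic myeloid leukaemia. Asynchronous cells, which are mostly in interphase, were compared with mitotic cells that had been arrested with nocodazole, a drug that blocks the spindle, and sorted by MPM-2, an antibody to mitotic phosphoproteins. Both populations were fixed with disuccinimidyl glutarate and then with formaldehyde, and mitotic cells of several sorts were pooled. There was 1 GATA2 library per condition, so no difference between conditions has a replicate check and none was tested. The inputs of both conditions were not analysed here. The lists give the start and end of each peak with no height or read count, so the depth is unknown and width is the only measure of a peak. A site without a mitotic peak may hold no GATA2 in mitosis or less than could be detected, and the lists do not tell these apart. The study's methods allow for a small share of asynchronous cells among the sorted mitotic cells. The paper holds, from a histone mark reduced at mitotic peaks, that bookmarked sites do not derive from such cells. This was not tested here. The intervals given with shares are exact 95% binomial intervals, which cover counting error over peaks only.

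TGF-beta and the bone morphogenetic proteins (BMPs) are secreted ligands that bind pairs of receptor kinases at the cell surface. The activated receptors phosphorylate receptor SMADs, SMAD3 for TGF-beta and SMAD1 for BMP, which join SMAD4 and enter the nucleus to bind DNA beside other transcription factors. SMAD6 and SMAD7 are induced by the pathway and inhibit it, SKI and SKIL hold SMAD target genes repressed, and ID2 is a classical BMP target whose protein blocks basic helix-loop-helix factors. In the blood lineage, BMP signals act in the formation of blood from mesoderm, and TGF-beta restrains the cycling of haematopoietic stem cells. GATA2 is a zinc finger factor of blood stem and progenitor cells, and a factor that stays on its sites through mitosis is said to bookmark them.

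The 5 mitotic peaks lay at 3 genes, BMPR2, SMAD3 and SMAD6, with 2 peaks at BMPR2, 2 at SMAD3 and 1 at SMAD6. Each was wholly inside a single asynchronous peak, so 5 of the 57 asynchronous peaks were bookmarked, which means here that they shared at least 1 base with a mitotic peak. Their sequences are shown because they are the sites of these genes at which GATA2 was found in both conditions. All sequences are of the plus strand of hg38, 5′ to 3′, and capitals mark each match to AGATAA, its variant AGATAG, the related TGATAA or its variant TGATAG on either strand, which were searched as GATA matches. A GATA match was present in 93.0% of all asynchronous peaks. The mitotic peaks of 174 and 258 bp are printed whole and the other 3 as their central 300 bp.
BMPR2 intron 1, 5′ site, chr2:202418660-202418833: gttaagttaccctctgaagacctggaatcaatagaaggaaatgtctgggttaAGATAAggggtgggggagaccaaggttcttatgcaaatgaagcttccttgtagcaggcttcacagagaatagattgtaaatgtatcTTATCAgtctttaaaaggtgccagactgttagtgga
BMPR2 intron 1, 3′ site, chr2:202442823-202443122: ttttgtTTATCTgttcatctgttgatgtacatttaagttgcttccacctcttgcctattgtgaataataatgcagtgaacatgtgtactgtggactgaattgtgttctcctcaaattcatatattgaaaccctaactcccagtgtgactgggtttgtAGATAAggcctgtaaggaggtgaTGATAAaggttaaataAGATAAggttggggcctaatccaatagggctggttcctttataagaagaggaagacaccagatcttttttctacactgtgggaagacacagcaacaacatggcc
SMAD3 intron 1, 5′ site, chr15:67091173-67091472: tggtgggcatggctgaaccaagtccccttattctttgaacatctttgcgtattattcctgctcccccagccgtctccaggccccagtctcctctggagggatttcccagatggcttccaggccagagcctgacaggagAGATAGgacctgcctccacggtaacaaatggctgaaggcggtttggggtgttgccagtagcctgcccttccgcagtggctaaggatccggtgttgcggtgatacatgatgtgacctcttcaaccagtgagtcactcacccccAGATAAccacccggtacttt
SMAD3 intron 5, 3′ site, chr15:67178893-67179150: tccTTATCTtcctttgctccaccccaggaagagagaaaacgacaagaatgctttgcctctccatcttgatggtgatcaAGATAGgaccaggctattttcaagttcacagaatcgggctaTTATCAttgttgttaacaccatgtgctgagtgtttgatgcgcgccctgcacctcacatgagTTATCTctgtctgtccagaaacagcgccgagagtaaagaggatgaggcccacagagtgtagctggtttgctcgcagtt
SMAD6 upstream site, chr15:66679797-66680096: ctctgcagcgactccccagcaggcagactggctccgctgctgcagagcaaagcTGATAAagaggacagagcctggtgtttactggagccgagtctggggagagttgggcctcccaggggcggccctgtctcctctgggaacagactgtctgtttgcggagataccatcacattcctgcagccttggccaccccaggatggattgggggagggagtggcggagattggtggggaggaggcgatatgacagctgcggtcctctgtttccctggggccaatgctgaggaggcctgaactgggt

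The whole mitotic peaks held 2, 4, 2, 4 and 1 GATA matches in this order. Beside them, CAGACA was searched as a SMAD string, since SMAD3 and SMAD4 bind this element. It was present in 31.5% of all asynchronous peaks and in 28.6% of all mitotic peaks. It occurred once in the mitotic peaks of the BMPR2 5′ site, the SMAD3 3′ site and the SMAD6 site, each time on the minus strand, where it reads TGTCTG on the strand shown. At the SMAD3 3′ site the last GATA match, TTATCT at chr15:67179073-67179078, was followed after 1 base by TGTCTG at chr15:67179080-67179085. At the BMPR2 3′ site the AGATAA at chr2:202442980-202442985 ended a composite element, CTG and GATAA with 8 bases between them. This arrangement is known to be bound by GATA factors together with TAL1 and its partners. It was present in 8.55% of all asynchronous peaks and in 13.1% of all mitotic peaks. The SMAD3 5′ site held TGAGTCA, the AP-1 string, at chr15:67091437-67091443, and the SMAD6 site held CAGCTG, an E-box, at 2 places. Of all mitotic peaks, 11.7% held the AP-1 string and 23.5% the E-box.

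For comparison, 3 peaks found in asynchronous cells only are shown, chosen after their values were seen. The SMAD7 peak is printed for its GTCTAGAC, the palindrome first selected as a SMAD binding element, which is also in capitals and was present in 0.337% of all asynchronous peaks. The SMAD1 peak is printed for having the most GATA matches per kb of the 57 peaks, and the ID2 peak, by its central 300 bp, as the single peak at that gene.
SMAD7 upstream peak, chr18:48982304-48982535: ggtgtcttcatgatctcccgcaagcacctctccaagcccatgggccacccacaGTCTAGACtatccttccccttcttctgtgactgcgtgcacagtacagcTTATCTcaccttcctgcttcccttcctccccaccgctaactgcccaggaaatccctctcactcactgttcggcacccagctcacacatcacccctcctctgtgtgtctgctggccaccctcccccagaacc
SMAD1 intron 1 peak, chr4:145495255-145495545: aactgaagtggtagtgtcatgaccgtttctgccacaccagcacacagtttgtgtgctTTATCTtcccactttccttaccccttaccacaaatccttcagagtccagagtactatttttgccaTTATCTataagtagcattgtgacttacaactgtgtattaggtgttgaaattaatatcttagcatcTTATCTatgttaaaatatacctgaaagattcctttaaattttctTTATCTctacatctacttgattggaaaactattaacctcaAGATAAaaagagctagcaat
ID2 upstream peak, chr2:8677689-8677988: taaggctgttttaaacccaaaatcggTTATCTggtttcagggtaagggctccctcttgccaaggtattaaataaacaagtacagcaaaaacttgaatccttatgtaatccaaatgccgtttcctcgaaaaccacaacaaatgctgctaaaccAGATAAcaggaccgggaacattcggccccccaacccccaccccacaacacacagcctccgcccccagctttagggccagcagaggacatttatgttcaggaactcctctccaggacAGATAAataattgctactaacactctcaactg
These peaks held 1, 5 and 3 GATA matches. The ID2 peak had the same composite element as the BMPR2 3′ site, at chr2:8677831-8677846, and AACCACA, the RUNX string, at chr2:8677817-8677823. Many GATA matches and a composite element were thus each found at a peak that was called in mitosis and at one that was not.

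All 10 genes had an asynchronous peak in their window, where 76% of the 20033 protein-coding genes had one. The number per gene ran from 1 to 14 with a median of 4, against a median of 2 and quartiles of 1 and 4 over all protein-coding genes. The windows of the 10 genes were longer, with a median of 179298 bp against 127471 bp, and per 100 kb of window the medians were 2.45 and 1.41 peaks. SMAD3 with 14 peaks and SMAD7 with 12 held 26 of the 57 peaks. At least as many peaks as at SMAD3 were found at 1.09% of protein-coding genes, and at least as many as at SMAD7 at 1.94%. SMAD7 was the densest, with 9.15 peaks per 100 kb, a density reached by 0.295% of protein-coding genes.

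**Figure D1:**
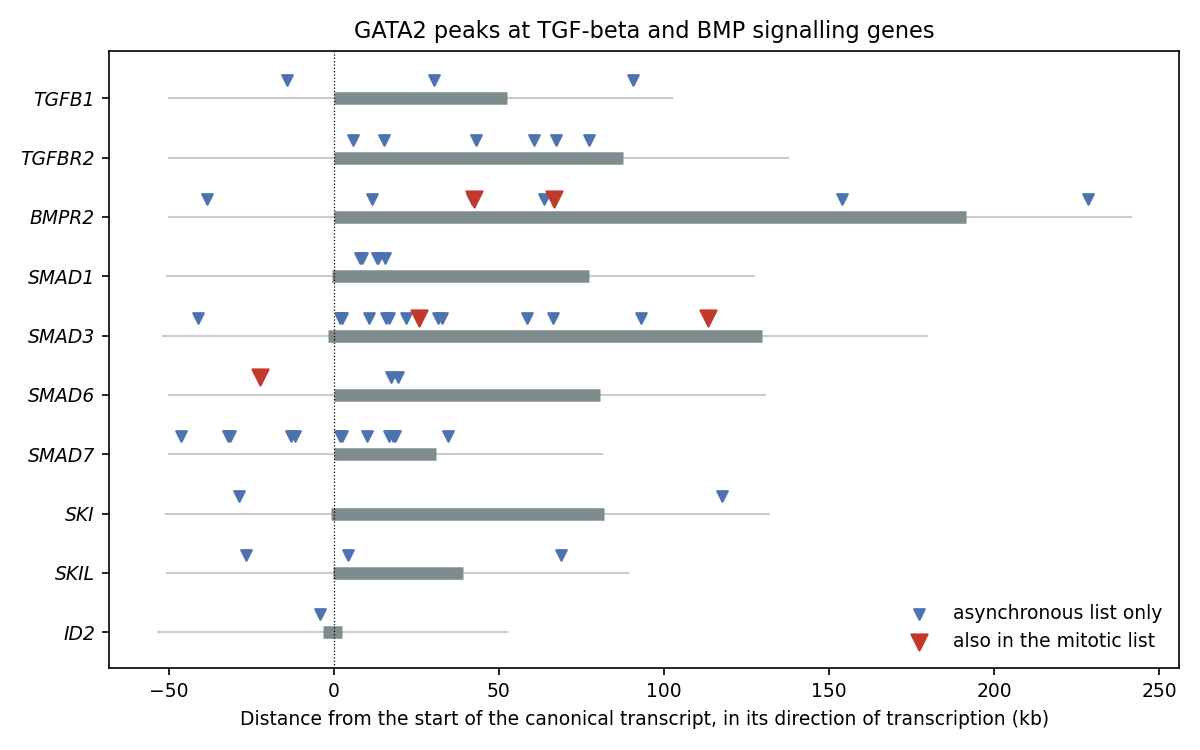
GATA2 peaks at the 10 genes, one row per gene. The x axis is the distance of each peak's midpoint from the start of the canonical transcript in kb, positive in the direction of transcription. Thick bars are gene bodies and thin lines the windows. Blue triangles are the 52 peaks found in asynchronous cells only and large red triangles the 5 bookmarked peaks, of which 4 lie inside BMPR2 and SMAD3 and 1 upstream of SMAD6.

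TGFB1, the most widely studied ligand of the family (chr19:41301587-41353922, minus strand), had 3 asynchronous peaks and no mitotic peak. They were 416, 454 and 708 bp wide. None was nearest to a TGFB1 start site: the nearest genes were HNRNPUL1, CCDC97 and B9D2, and the window held 8 other protein-coding genes. The widest lay 14.1 kb upstream of the canonical start. All 3 contained CAGACA and together they held 4 GATA matches. The nearest mitotic peak was 478 kb from the gene, with EGLN2 as its nearest gene.

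The receptors differed in the number of mitotic peaks. TGFBR2, the receptor that binds TGF-beta (chr3:30606601-30694142, plus strand), had 6 asynchronous peaks, all inside the gene in introns 1 to 5, and no mitotic peak. They were narrow, from 219 to 410 bp with a median of 244 bp, and none held CAGACA. They held 11 GATA matches, and 1 peak lay 46 bp from the start of a shorter TGFBR2 transcript. The nearest mitotic peak was 2015 kb away.

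BMPR2, a receptor kinase for BMPs (chr2:202376327-202567751, plus strand), had 8 asynchronous peaks, of which 2 were bookmarked. The bookmarked peaks were 677 and 702 bp wide and lay in intron 1, 42.5 and 66.6 kb downstream of the canonical start. The other 6 were 180, 252, 346, 516, 670 and 794 bp wide. Width therefore did not separate the bookmarked peaks at this gene: the widest, also in intron 1 and 11.7 kb from the start, had no mitotic peak, and neither had the peak of 670 bp, 38.2 kb upstream. GATA matches did not separate them either, since the bookmarked peaks held 4 and 5 and the upstream peak of 670 bp held 5. A peak of 180 bp ended 156 bp before the bookmarked 5′ peak and was found in asynchronous cells only.

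SMAD1, the transducer of BMP signals (chr4:145481194-145559176, plus strand), had 5 asynchronous peaks, all inside intron 1 and between 7.82 and 15.5 kb from the canonical start. They were 144, 247, 291, 406 and 424 bp wide, and the gaps between neighbours ran from 94 to 4202 bp. They held 12 GATA matches, 5 of them in the peak of 291 bp shown above. No mitotic peak was found, and the nearest was 1462 kb from the gene.

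SMAD3, the transducer of TGF-beta signals (chr15:67063763-67195173, plus strand), had 14 asynchronous peaks, the most of the 10 genes. Of these, 12 were in intron 1, 1 in intron 5 and 1 lay 41.1 kb upstream of the canonical start. Their widths ran from 205 to 696 bp with a median of 418 bp. The bookmarked peaks were 641 and 696 bp wide and lay 25.7 kb downstream of the canonical start in intron 1 and 113 kb downstream in intron 5. The peak in intron 5 was the widest at SMAD3, with 5 GATA matches, and its mitotic peak lay 1730 bp from the start of a short SMAD3 transcript. Of the other 12, 11 were narrower than both bookmarked peaks and 1, of 671 bp, lay between them in width. That peak was the nearest to the canonical start, 1479 bp from it, and had 2 GATA matches, the same number as the bookmarked peak in intron 1. The upstream peak was 1 of the 2 peaks of the 57 with no GATA match.

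The inhibitory SMADs differed from each other. SMAD6 (chr15:66702236-66782849, plus strand), which acts mainly on BMP signals, had 3 asynchronous peaks, of 345, 380 and 971 bp. The widest was bookmarked and lay 22.4 kb upstream of the canonical start. It was the widest of the 57 peaks, and 1.74% of all asynchronous peaks were wider. Its 4 GATA matches were spread over the peak, and 1 of them was inside the mitotic peak. The other 2 peaks were in intron 3, with 1 and 3 GATA matches. SMAD6 lies on the same chromosome as SMAD3, and the windows of both genes do not overlap.

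SMAD7, which inhibits both branches (chr18:48919853-48950965, minus strand), had 12 asynchronous peaks and no mitotic peak. Of these, 4 were in intron 3, 2 in intron 1, 5 upstream and 1 downstream of the gene. Widths ran from 215 to 782 bp with a median of 462 bp, so that 2 SMAD7 peaks, of 670 and 782 bp, were wider than the narrowest bookmarked peak of the 10 genes. No peak at SMAD7 held more than 4 GATA matches. Both intron 1 peaks overlapped the start of an alternative SMAD7 transcript and held GGCGCC, a GC-rich SMAD string that was present in 2.95% of all asynchronous peaks and at no other peak of the 10 genes. With the GTCTAGAC of the peak 31.5 kb upstream and CAGACA in other peaks, 7 of the 12 peaks held a SMAD string. The nearest mitotic peak was 159 kb from the gene and nearest to DYM.

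The corepressors and the target gene had few peaks and no mitotic peak. SKI (chr1:2227388-2310213, plus strand) had peaks of 203 and 415 bp, both outside the gene and nearest to FAAP20 and MORN1. The narrower lay 111 bp from a FAAP20 start and was the other peak with no GATA match. SKIL (chr3:170357342-170396835, plus strand) had 3 peaks, of 376, 379 and 393 bp. The widest was in intron 2, 4.24 kb from the canonical start and 550 bp from another SKIL start. ID2 (chr2:8678845-8684461, plus strand) had 1 peak of 460 bp, 804 bp upstream of the nearest ID2 start and 4.25 kb upstream of the canonical one. The nearest mitotic peaks were 3576, 382 and 958 kb from SKI, SKIL and ID2.

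The share of asynchronous peaks that were bookmarked was 8.77% at the 10 genes (5 of 57, 95% interval 2.91 to 19.3%), against 5.04% of all asynchronous peaks (1600 of 31777, 4.80 to 5.28%). The interval of the 10 genes includes the share of all peaks, so a difference from the background was not detectable with 57 peaks. A mitotic peak was found in the window of 3 of the 10 genes, against 11.7% of all protein-coding genes. At least 2 mitotic peaks were found at BMPR2 and SMAD3, and at 1.68% of all protein-coding genes.

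The share of genes with a bookmarked peak grew with the number of asynchronous peaks in its window. Among protein-coding genes it rose from 2.51% with 1 asynchronous peak to 13.0% with 3, 29.7% with 6 to 8 and 43.8% with 9 to 14. Among genes with exactly 14 peaks, as at SMAD3, 32 of 49 had a bookmarked peak (65.3%). Among those with 12, as at SMAD7, 47 of 95 had one (49.5%), and with 8, as at BMPR2, 154 of 419 (36.8%). SMAD6 had a bookmarked peak with 3 asynchronous peaks, a number at which 316 of 2436 genes had one (13.0%).

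**Figure D2:**
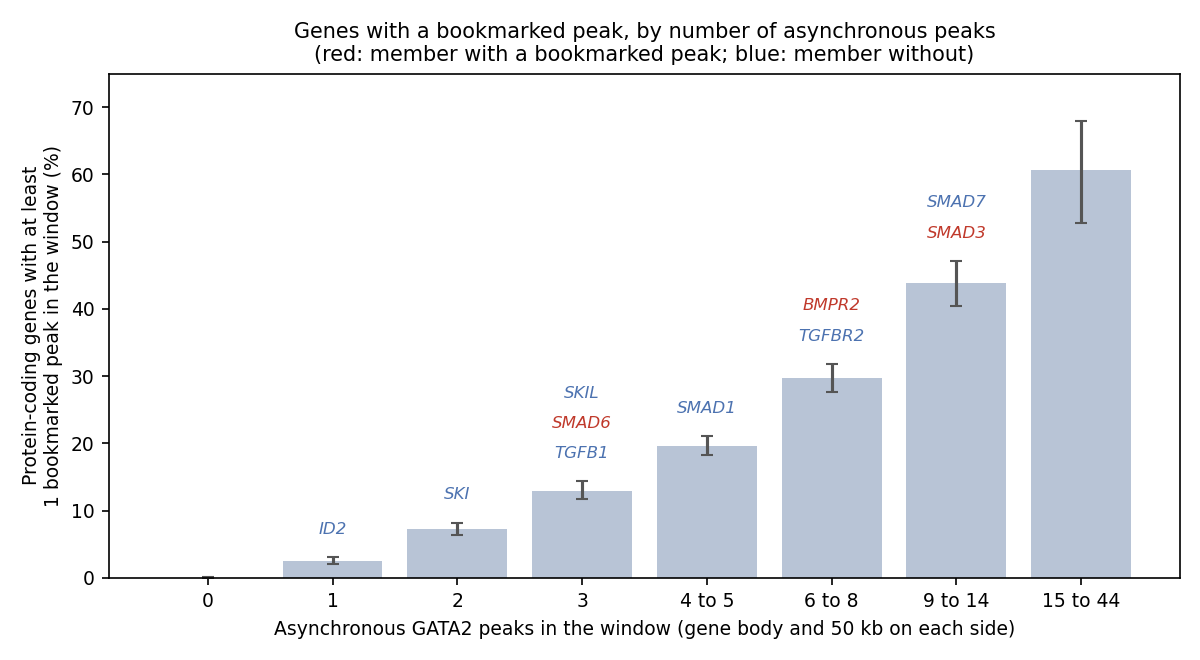
Share of protein-coding genes with at least 1 bookmarked peak in the window (y axis, %), by the number of asynchronous peaks in the window (x axis), with exact 95% binomial intervals. Each of the 10 genes is named above its own bar, in red where it had a bookmarked peak and in blue where it had none. The bars rise from 2.51% at 1 peak to 60.6% at 15 to 44 peaks, and the named genes stand at every bar from 1 to 14 peaks.

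Bookmarked peaks were at the wide end of the 57. Their asynchronous widths were 641, 677, 696, 702 and 971 bp, with a median of 696 bp, and the 52 other peaks had a median of 386.5 bp and a range of 144 to 794 bp. The groups overlapped. Over all asynchronous peaks the medians were 674 bp for bookmarked peaks and 367 bp for the others. At or above 641 bp, the narrowest bookmarked width at these genes, 6 further peaks were found in asynchronous cells only: 1 at TGFB1, 2 at BMPR2, 1 at SMAD3 and 2 at SMAD7. Of all asynchronous peaks, 22.5% of those at or above this width were bookmarked (895 of 3979, 21.2 to 23.8%) and 2.54% of those below it. Since the limit was set by the narrowest bookmarked peak of the 10 genes, all 5 of their bookmarked peaks lie above it by construction, and no share of their own is read from it.

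**Figure D3:**
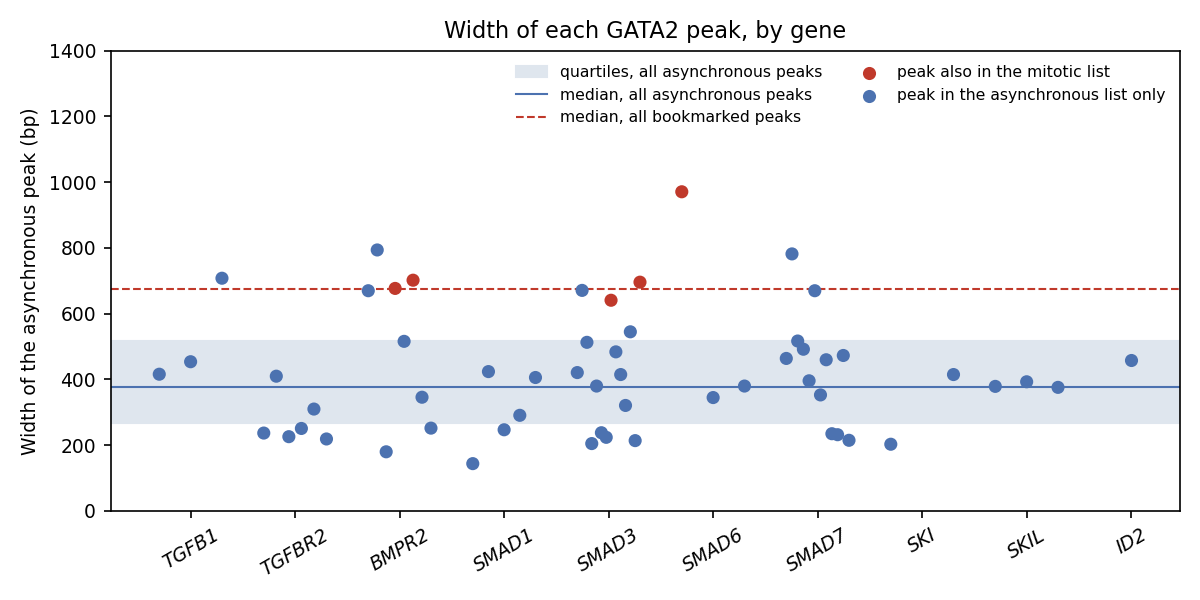
Width of each asynchronous peak (y axis, bp) at the 10 genes, peaks of a gene in genome order. Red points are the 5 bookmarked peaks and blue points the other 52. The band and blue line are the quartiles and median of all asynchronous peaks (267, 378 and 518 bp), and the dashed line is the median of all bookmarked peaks (674 bp). Red points lie between 641 and 971 bp, and 6 blue points lie in the same range.

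Each mitotic peak covered part of its asynchronous peak. The parts covered were 25.7% and 60.7% at the BMPR2 sites, 66.3% and 37.1% at the SMAD3 sites and 47.3% at the SMAD6 site. The midpoints of the paired peaks differed by 54, 24, 19, 53 and 143 bp. The 5 mitotic peaks were 174, 258, 425, 426 and 459 bp wide, and their median of 425 bp was above the 298 bp of all mitotic peaks. They held 13 of the 20 GATA matches of their asynchronous peaks in 47.2% of the bases, which is 7.46 matches per kb inside and 3.60 per kb outside the mitotic part. Over all 1600 bookmarked peaks the values were 69.2% of the matches in 45.0% of the bases, or 7.71 and 2.81 per kb. The sites differed: both matches of the SMAD3 5′ site were inside the mitotic part, and 3 of the 4 matches at SMAD6 were outside it.

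Among all 57 peaks, 55 held a GATA match (96.5%, 87.9 to 99.6%), against 93.0% of all asynchronous peaks. The mean was 2.07 ± 1.29 matches per peak (SD over 57 peaks) against 2.51 ± 2.99, and 33 peaks held at least 2 matches (57.9%, 44.1 to 70.9%) against 66.4%. The 5 bookmarked peaks held 2 to 5 matches, with a mean of 4.00 ± 1.22, and the other 52 a mean of 1.88 ± 1.15. Per kb of sequence, the bookmarked peaks held 5.42 and the others 4.81. Over the whole list the order per kb was reversed, with 5.01 in all 1600 bookmarked peaks and 6.09 in all others. The mean number per peak over the whole list was 3.56 in bookmarked peaks and 2.45 in the others. CAGACA was found in 25 of the 57 peaks (43.9%, 30.7 to 57.6%), against 31.5% of all asynchronous peaks, a share inside that interval. Any SMAD string (CAGACA, the GC-rich string or the palindrome) was found in 27 peaks (47.4%, 34.0 to 61.0%), against 33.7% of all asynchronous peaks, a share just below that interval. The strings were chosen with earlier results of these data known, the peaks of a gene are not independent, and this difference was not tested. CAGACA was at 3 of the 5 bookmarked peaks, and over the whole list at 46.4% of the 1600 bookmarked peaks. It was at all 3 TGFB1 peaks and none of the 6 TGFBR2 peaks. A GATA match and CAGACA within 10 bp of each other were found in 6 peaks (10.5%, 3.96 to 21.5%), against 6.98% of all asynchronous peaks. These were 2 peaks at BMPR2 and 1 each at TGFB1, SMAD3, SMAD7 and SKIL, and the bookmarked BMPR2 5′ and SMAD3 3′ sites were among them.

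For strings of other factors, the share of all asynchronous peaks lay inside the interval of the 57 peaks, which is wide. AACCACA (RUNX) was in 8 of the 57 peaks (14.0%) against 13.6% of all, CAGCTG (E-box) in 14 (24.6%) against 24.1%, and TGAGTCA or TGACTCA (AP-1) in 10 (17.5%) against 13.0%. AGGAAGT (ETS) was in 5 (8.77%, 2.91 to 19.3%) against 14.9%, and the composite element in 2 (3.51%, 0.428 to 12.1%) against 8.55%. RUNX and ETS strings were at 0 of the 5 bookmarked peaks, which allows a share of up to 52.2% (exact 95% interval). Over all 1600 bookmarked peaks the shares were 20.4% for RUNX and 23.4% for ETS, both below that limit. Such matches are of letters only and do not show that a factor was bound.

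**Figure D4:**
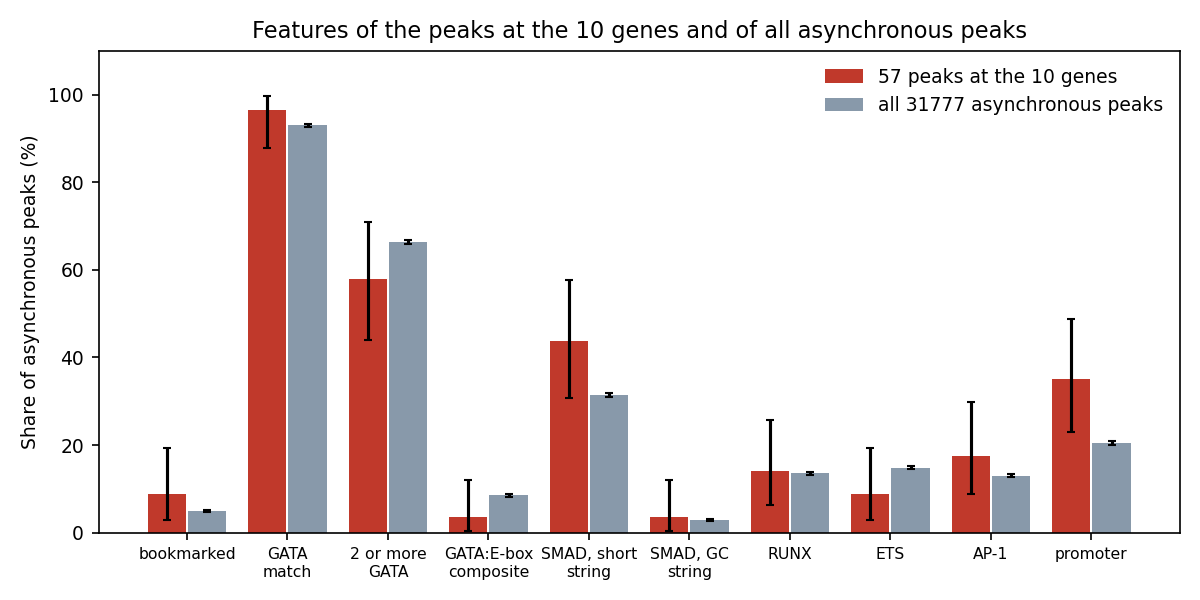
Share of asynchronous peaks (y axis, %) that were bookmarked, held each string or lay at a promoter, for the 57 peaks at the 10 genes (red) and all 31777 (grey), with exact 95% binomial intervals. The short SMAD string is the one found in 43.9% and 31.5% of peaks, and the GC string the one in 3.51% and 2.95%. Of the features drawn, the grey share lies outside the red interval for promoters. The share with any SMAD string, 47.4% against 33.7%, is not drawn and also lies outside its interval.

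By the position of their midpoints, 39 of the 57 peaks were in an intron of the canonical transcript, 26 of them in intron 1, and no midpoint was in an exon of it. By any shared base, 1 peak reached an exon of its canonical transcript (the SMAD7 peak of 670 bp, at exon 2), and 5 peaks overlapped an annotated untranslated region of any transcript, 2 at SMAD3, 2 at SMAD7 and 1 at TGFB1. There were 12 peaks upstream and 5 downstream of a gene, and 1 peak lay inside the annotated TGFB1 gene beyond the end of its canonical transcript. Of the 5 bookmarked peaks, 3 were in intron 1, 1 in intron 5 and 1 upstream. No peak overlapped the canonical start of any of the 10 genes. A promoter position, with the midpoint within 3 kb of any protein-coding start, was found for 20 of 57 peaks (35.1%, 22.9 to 48.9%), against 20.5% of all asynchronous peaks and 24.4% of the 26703 that lay in the window of any protein-coding gene. The latter share is inside the interval. SMAD3 and SMAD7, which have several annotated starts, gave 13 of these 20 peaks. Only 1 bookmarked peak, the SMAD3 3′ site, was at a promoter by this measure.

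The wider pathway was described with 50 genes, the 10 included, which held 192 asynchronous and 11 mitotic peaks. Of the 192, 11 were bookmarked (5.73%, 2.89 to 10.0%). A mitotic peak was in the window of 9 of the 50 genes (18%), against 11.7% of all protein-coding genes. By role, mitotic peaks were at 2 of 10 ligand genes, 4 of 12 receptor genes, 2 of 8 SMAD genes, 0 of 11 corepressor and inhibitor genes and 1 of 9 target genes. An asynchronous peak was in the window of 41 of the 50 genes (82%), against 76% of all protein-coding genes. All 12 receptor and all 8 SMAD genes had one, as did 6 of 10 ligand genes. So did 8 of 11 corepressor and inhibitor genes and 7 of 9 target genes. The genes without any were BMP2, BMP4, BMP7, INHBA, NOG, GREM1, FST, ID4 and CDKN2B. Of genes with many asynchronous peaks, TGFBR3, a coreceptor, had 16, SMAD2 had 11 and SMURF2, a ubiquitin ligase of receptors and SMADs, had 10, all without a mitotic peak, while ACVRL1 with 14 and ACVR1B with 13 had 2 mitotic peaks each, the same 2. Among all protein-coding genes, 43.8% of those with 9 to 14 asynchronous peaks and 60.6% of those with 15 to 44 had a bookmarked peak.

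Mitotic peaks at the other 40 genes were often nearer to a neighbour. ACVRL1 and ACVR1B, receptors of the BMP and activin branches that lie side by side, shared both of theirs. The peak at chr12:51972765-51973236 lay in intron 1 of ACVR1B, and that at chr12:51925471-51925786, in an asynchronous peak of 1154 bp, was 2110 bp past the end of ACVRL1. INHBB, an activin subunit, had a peak at chr2:120324142-120324394, 21742 bp upstream, with INHBB as the nearest gene. The peak in the BMP6 window was 332 bp from a TXNDC5 start, that of ACVR2B, an activin receptor, overlapped an EXOG start, and that of ID3, a BMP target like ID2, was nearest to E2F2. The 5 mitotic peaks of BMPR2, SMAD3 and SMAD6 were all nearest to a start of that gene.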

How the data were processed

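GATA2 ChIP-seq of asynchronous and mitotic K562 cells gave 1 list of peaks each. Per the labels and the study's methods, the authors mapped reads to hg38, used unique alignments extended at the 3′ end, called peaks and dropped those in the ENCODE blacklist. The submitters' processing notes name BWA 0.7.12, MACS2 2.1.0 and Genrich 0.6.1. How the calls of both programs were combined, the thresholds and the use of the inputs are not given in the sources used here. The deposited values are genomic positions in 3 columns (chromosome, start, end), with no score, so how each call was made and how deep each library was can change which sites appear as mitotic.

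Coordinates are given with the first base as 1, on GRCh38 (hg38), and no peak reached beyond a chromosome end. Gene windows (50 kb), canonical transcripts and start sites are of GENCODE release 44. Peaks were compared by at least 1 shared base, and strings were searched on both strands without overlap. Every peak of each list was used for the background shares. Intervals are Clopper-Pearson at 95%. No test was run, since each condition has 1 library. The text names the 10 genes, each mitotic peak in their windows, the widest and the nearest peak of each gene, and each gene of the wider lists with a mitotic peak. The genes and lists were chosen with earlier results of these data known, so they support no claim about the pathway. Alternatives changed the window, the overlap, the assignment to genes, the strings, the part of a peak searched and the promoter distance, and left out each gene in turn. The comparison of promoter shares with peaks in any gene window was added after the data were seen. The overlap of peaks, the assignment to gene windows and the search for GATA matches were tested on simulated data. The other steps were not. The work used scipy 1.17.1 for intervals, pandas 2.3.3 and numpy 2.4.6 for tables and matplotlib 3.10.9 for figures, under Python 3.11.15.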

Additional observations from a re-analysis of the deposited data

How the results depend on the processing

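Of 43 recomputed values, 34 stayed close to the reported one: a count within 1.5 times, a share inside the reported interval. For the bookmarked share that interval is 2.91 to 19.3%, so a share could change much and still count as close. The bookmarked share at the 10 genes was 6.41 to 10.0% with windows of 0, 10 and 100 kb, the nearest start or the canonical span, and 6.12 to 11.1% with each gene left out. With a reciprocal overlap of at least 50% it fell to 3.51%, against 2.02% of all asynchronous peaks, and 2 genes kept a bookmarked peak. Of the 10 genes, 2 or 3 had a mitotic peak under every alternative run. With windows of 0, 10 and 100 kb the numbers were 2, 2 and 3. The shares of all protein-coding genes in these windows were 4.01%, 5.75% and 18.5%. The 9 values that moved are given next. The median width of bookmarked sites was 425 bp by the mitotic peak. The share with a GATA match was 71.9% with AGATAA alone (70.0% of all asynchronous peaks) and 87.7% in the 200 bp around the midpoint (84.8%). The share with any SMAD string, 47.4% as reported (33.7% of all), was 61.4% with CAGAC (57.8%), 26.3% with GGCGCC or GGAGCC (21.4%) and 22.8% in the central 200 bp (19.9%). Under each alternative the share of all peaks lay inside the interval of the 57 peaks (47.6 to 74.0%, 15.5 to 39.7% and 12.7 to 35.8%). A background outside the interval was thus seen only with the strings and whole peaks as reported. At a promoter distance of 1 kb, 19.3% of the 57 peaks were at promoters (10.0 to 31.9%). The share of all asynchronous peaks, 10.2%, lies inside that interval, near its lower end. Of the 50 pathway genes, 3 and 5 had a mitotic peak with windows of 0 and 10 kb, where 4.01% and 5.75% of protein-coding genes had one. With windows of 100 kb the number was 11, close to the reported 9, and 18.5% of protein-coding genes had one. No paired analysis was possible because each condition has 1 library and no test was run. With 57 peaks and no read depth, the data limit the share to the intervals given, and a peak called in asynchronous cells only may be a matter of detection in the mitotic library, which was not tested.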
